A study of Mus musculus with 2 samples.

Results

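The genes described here are 39 genes of fatty acid oxidation, chosen by name and all found among the 15169 genes of a single-cell table of mouse kidney. By the location of their proteins 19 were grouped as mitochondrial, 9 as peroxisomal, 6 as having several locations (Ech1, Eci2, Amacr, Crat, Acsl1 and Slc27a2) and 5 as other (the omega-hydroxylases Cyp4a10 and Cyp4a14 and the regulators Ppara, Ppargc1a and Pdk4). The table holds 11759 cells from whole kidneys of C57BL/6 wild-type mice 9 weeks old, in 2 libraries. The control library (CTRL, 6589 cells) came from a kidney labelled normal control, for which no surgery is named. The extraction protocol given for both samples, however, speaks of injured kidneys. The IRI library (5170 cells) came from a kidney after ischaemia-reperfusion of one side with removal of the opposite kidney, so ischaemia and nephrectomy cannot be told apart, and no time after injury is given. Each group is 1 library from a number of animals that is not given, so no value below has an error between animals and no test was possible.

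Long-chain fatty acids are taken up and coupled to coenzyme A, carried into mitochondria by the carnitine shuttle and shortened there by repeated rounds of beta-oxidation, which passes electrons on through the electron transfer flavoproteins. Peroxisomes have a separate beta-oxidation chain for very long and branched chains, and hand the shortened chains on to mitochondria. The proximal tubule of the kidney depends on this pathway for energy, and the nuclear receptor PPAR-alpha, encoded by Ppara, is the known activator of many of its genes, the peroxisomal enzymes and the omega-hydroxylases among them.

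Values are means per cell of the deposited depth-corrected counts, whole numbers that the authors' processing had already adjusted to a common depth. A log2 ratio compares the IRI mean with the control mean after 0.05 was added to both, and a gene counts as different at 2-fold, if its corrected counts in the cells compared sum to at least 30. Most of the comparisons are made in the proximal tubule, which the deposited annotation divides into segments S1 (600 control and 989 IRI cells), S2 (2785 and 1482) and S3 (1442 and 790). The S1 label was borne out by its markers: Slc5a2 and Slc5a12 together averaged 1.68 in control S1 and 0.0862 and 0.0915 in S2 and S3. In IRI S1 these markers averaged 1.12. Of the markers listed for S2, Slc22a6 averaged 0.202 in control S1 and 0.490 in IRI S1, while Slc22a8 differed little (0.317 and 0.331). The S2 label was not borne out, since the S2 marker Slc22a6 averaged 0.195 in control S2 and 1.01 in control S3. The S3 markers Slc7a13, Slc22a7 and Slc5a10 together averaged 1.88 in control S3 and 0.182 in IRI S3, so cells with that label carried little of their markers in the IRI library. The segments were also filled by different clusters: control S2 came mostly from clusters 1 and 2 (1283 and 898 cells) and IRI S2 from clusters 0 and 12 (1092 and 292), while control S3 came mostly from clusters 4 and 8 (742 and 455) and IRI S3 from cluster 3 (727). Only S1 had the same main clusters in both libraries, clusters 5 (283 and 501 cells) and 6 (276 and 479). Median raw depth per cell was 4953.5 and 4716 UMIs in control and IRI S1, 1495 and 912 in S2, and 4507.5 and 2338.5 in S3.

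In the promoters of the members a short motif was looked for. Nuclear receptors such as PPAR-alpha bind paired copies of the hexamer AGGTCA. RefSeq promoter sequences of build GRCm38.p6 were at hand for 31 of the 39 members, in 33 windows, and the 250 bases before each start site were searched on both strands. The single hexamer was found for 5 members, Acadm, Acadvl, Cpt1a, Echs1 and Slc27a2. These 5 of 33 windows are near the share of all 32851 windows of that length, 14.0%. A pair of such hexamers on 1 strand with any 1 base between them was found in no member window and in 0.0335% of all windows, and the longer form TCAAGGTCA of the oestrogen-related receptors in no member window and in 0.387% of all. A match or its absence describes these 250 bases only. Shown first are the windows of Acadm and Slc27a2, with the hexamer, here on the reverse strand, in capitals. They were picked from the genes with a hexamer for their lower means in IRI S3. Of the others, Cpt1a was also lower there (log2 ratio -0.55), while Acadvl (0.14) and Echs1 (0.02) were not. The Acadm window (chr3:153944644-153944893, minus strand) has it at its far end and the Slc27a2 window (chr2:126552774-126553023, plus strand) 220 bases before the start.
Acadm: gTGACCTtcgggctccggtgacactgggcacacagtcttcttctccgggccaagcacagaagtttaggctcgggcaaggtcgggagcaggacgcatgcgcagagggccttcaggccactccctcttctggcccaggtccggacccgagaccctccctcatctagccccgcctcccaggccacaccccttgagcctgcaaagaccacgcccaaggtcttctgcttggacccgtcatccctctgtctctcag
Slc27a2: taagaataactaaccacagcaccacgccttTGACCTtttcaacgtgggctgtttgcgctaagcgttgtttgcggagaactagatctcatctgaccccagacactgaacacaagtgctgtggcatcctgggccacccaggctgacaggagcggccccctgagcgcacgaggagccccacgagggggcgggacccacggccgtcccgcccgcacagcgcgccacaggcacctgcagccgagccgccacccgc

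The next window belongs to Ehhadh (chr16:21787835-21788084, minus strand), the peroxisomal gene with the largest difference in S1. None of these motifs is in it.
Ehhadh: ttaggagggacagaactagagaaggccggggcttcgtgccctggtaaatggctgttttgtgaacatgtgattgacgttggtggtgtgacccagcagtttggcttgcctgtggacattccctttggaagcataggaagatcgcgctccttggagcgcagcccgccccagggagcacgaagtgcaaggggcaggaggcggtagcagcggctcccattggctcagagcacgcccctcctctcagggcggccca

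Hadha and Hadhb, the alpha and beta subunits of the mitochondrial trifunctional protein, lie head to head on chromosome 5, and 228 bases are common to their windows. The Hadhb window (chr5:30155003-30155252, plus strand) is shown because those bases stand before both genes.
Hadhb: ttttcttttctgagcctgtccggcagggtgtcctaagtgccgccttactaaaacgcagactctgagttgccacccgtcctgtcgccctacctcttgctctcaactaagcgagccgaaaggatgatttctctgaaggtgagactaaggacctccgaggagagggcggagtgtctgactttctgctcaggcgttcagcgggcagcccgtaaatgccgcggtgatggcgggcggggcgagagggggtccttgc

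Among the annotated types of the control kidney the 39 genes had their highest sum per cell in S3, 19.3 corrected counts, against 13.2 in S2 and 10.06 in S1. The distal parts of the nephron had less, 9.49 in the thick ascending limb and 8.93 in distal convoluted and connecting tubule, and intercalated cells 6.81. T cells, which have no tubule programme, had 3.56, a level to keep beside all lower ones. As a share of all corrected counts, control cells named thin descending limb (0.893%) were slightly above control S3 (0.885%). In the IRI library the sums were 11.8 in S1, 9.04 in S2 and 12.9 in S3, so the order of S1 and S2 was turned over and S3 was closer to S1. Of the 39 genes 21 had their highest mean in a proximal tubule segment in the control library and 22 in the IRI library. The same count was not made over all genes, so these counts only describe the 39 and do not set them apart from other genes.

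**Figure D1:**
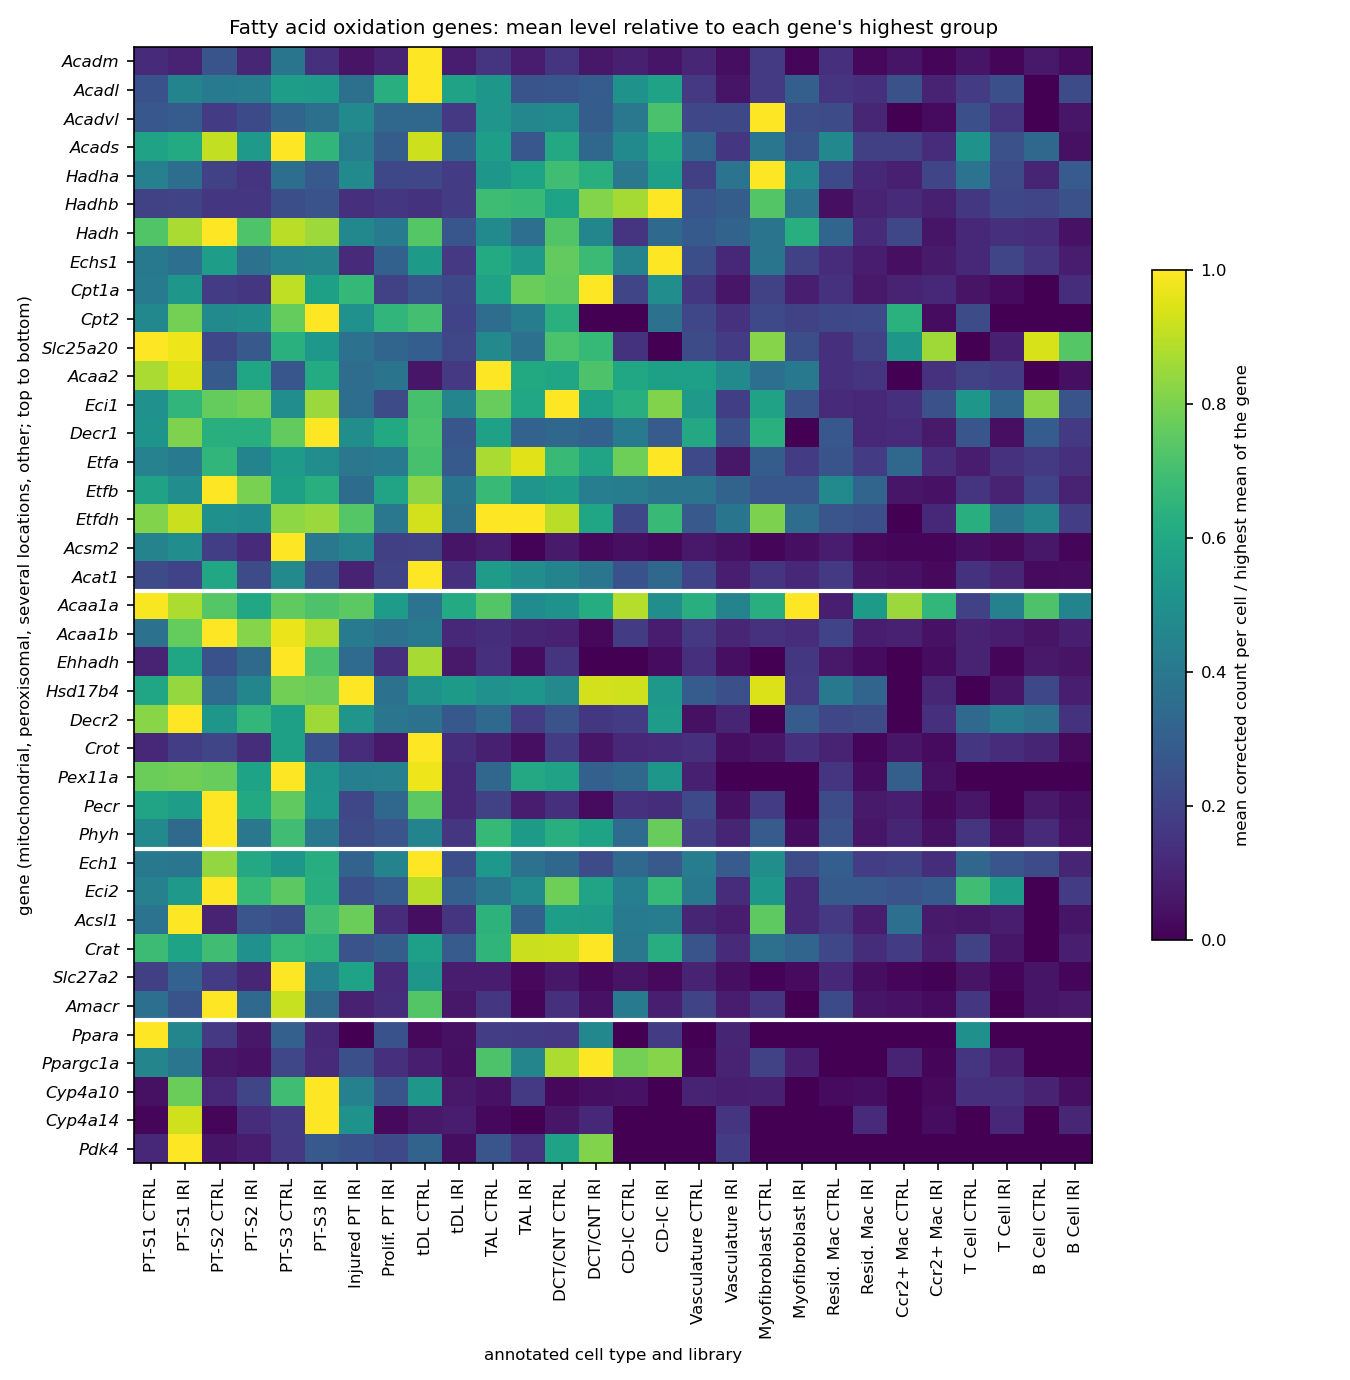
Mean corrected count per cell of the 39 genes (rows, by location) in 15 annotated cell types of the control and IRI libraries (columns), each row divided by its highest mean. Acadm, Crot and Acat1 were highest in the cells named thin descending limb of the control library, Cyp4a14 and Cyp4a10 in IRI S3, and Hadhb in intercalated cells.

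The genes were not all proximal. Hadhb averaged 0.456 in control and 0.527 in IRI intercalated cells, against 0.0986 and 0.103 in the pooled proximal tubule. Etfa, the alpha subunit of the electron transfer flavoprotein, was highest in the thick ascending limb of the control kidney (0.571) and in intercalated cells of the IRI kidney (0.655). Ppargc1a, the coactivator of mitochondrial biogenesis, averaged 0.292 and 0.333 in distal convoluted and connecting tubule, and 0.0522 and 0.0564 in the proximal tubule. Hadhb and Etfa thus had their highest means outside the proximal tubule in both libraries, whereas in the control library Acsm2 (3.43 in control S3), a medium-chain acyl-CoA synthetase, and the very-long-chain synthetase and transporter Slc27a2 (3.85 in control S3) had theirs within it.

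The cells that the annotation names thin descending limb of the loop of Henle (tDL) held one of the highest levels of these genes. Their markers do not bear the name out: Bst1 averaged 0.00234 and Fst 0 in the control cells, and Aqp1 0.543, below its 0.827 in control S3. The S3 markers together averaged 1.15 in these control cells and 0.0545 in the IRI cells so named, against 1.88 in control S3. The cells named tDL also form separate clusters by library, with 391 of the control cells in cluster 11 and 420 of the IRI cells in cluster 9. From here on they are therefore described by cluster only. In cluster 11 of the control library the genes summed to 18.9 per cell, and Acadm, the medium-chain acyl-CoA dehydrogenase, averaged 4.07 and was among the 10 genes by which the cluster stood out most. Slc27a2 averaged 2.18 there, Acat1, a mitochondrial thiolase of ketone body and isoleucine metabolism, 1.34, and Crot, the peroxisomal carnitine octanoyltransferase, 1.16. The 20 IRI cells of cluster 11 summed to 11.7, with Acadm at 1.45, Slc27a2 at 2.15 and Crot at 1.40. In this cluster 12 of 31 measured genes were at least 2-fold lower (24.3% of 2303 genes) and 1 higher (3.69%). Acat1 was among the lower ones (log2 ratio -1.21). In cluster 9 the sum was 5.64 in 36 control cells and 4.15 in the IRI cells, against 3.56 and 2.43 in T cells of the same libraries.

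Cells with the most of these transcripts formed small clusters that were nearly confined to the control library and were deeply read. Cluster 21, annotated as S3 (118 control cells, 1 IRI cell, median 10278 UMIs), summed to 31.1 per cell, with Slc27a2 at 9.14, Acadm at 6.96, Crot at 2.98 and Ehhadh at 1.70. Cluster 18, annotated as S2 (147 control cells, 1 IRI cell, median 7236 UMIs), summed to 31.6, with another set of genes. There Etfb averaged 5.01, the beta subunit of the electron transfer flavoprotein, Pecr, a peroxisomal enoyl-CoA reductase, 3.30, Ech1, a dienoyl-CoA isomerase, 3.01, and Phyh, the peroxisomal enzyme that starts the alpha-oxidation of phytanic acid, 2.34. In cluster 18 Slc27a2 averaged 0.673 and Crot 0.272, and in cluster 21 Phyh averaged 0.169 and Pecr 0.288. Acadm was above its pooled control mean in both clusters, with 1.79 in cluster 18.

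In the proximal tubule taken whole (4827 control and 3261 IRI cells) 4 of the 39 genes were at least 2-fold lower in the IRI library. Of the 10342 genes measured 0.880% were, and 2.17% of those with at least 300 summed counts. Acadm averaged 1.05 per cell in the control library and 0.422 in the IRI library (log2 ratio -1.22). Amacr, the racemase that prepares branched-chain acyl-CoAs and bile acid intermediates for peroxisomal oxidation, averaged 0.575 and 0.204 (-1.30). Both the medium-chain and the branched-chain entry to oxidation were thus among the genes that differed.

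Acat1 averaged 0.649 in control and 0.284 in IRI proximal tubule (log2 ratio -1.06). Phyh averaged 0.760 and 0.344 (-1.04). The other direction held 2 of the 39 genes, where 0.474% of all genes were at least 2-fold higher, and 1.07% of those with at least 300 summed counts. These were Acsl1, the long-chain acyl-CoA synthetase, at 0.0454 and 0.152 (1.08), and Cyp4a14 at 0.0170 and 0.159 (1.64). Cyp4a14 and its neighbour Cyp4a10 are omega-hydroxylases of the endoplasmic reticulum and textbook targets of PPAR-alpha.

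In the pooled proximal tubule both compartments had medians near that of all genes. The median log2 ratio was -0.11 over the 19 mitochondrial genes (10 below 0) and -0.15 over the 9 peroxisomal genes (6 below 0). Over all genes it was -0.02, with 5734 of 10342 below 0. The genes with several locations had a median of -0.34. Etfb averaged 1.67 in control and 1.35 in IRI cells, and Pecr 0.975 and 0.639 (-0.57).

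The 4 lower genes were much closer between libraries when like clusters were compared. When the 8 proximal clusters with at least 20 cells of each library were weighted equally, a comparison added after the data were seen, 0 of the 39 genes were 2-fold lower, where 0.319% of all genes were. Acadm then had a log2 ratio of -0.33, Phyh -0.44, Acat1 -0.27 and Amacr -0.22. Clusters 1, 2, 4, 8, 18 and 21 were mostly of the control library, so a difference in which clusters each library holds moved with these 4 genes. Clusters 8, 18, 21 and 27 were left out, and the 25 IRI cells of cluster 1 counted as a full cluster. Clusters rest on expression in these same cells, and Acat1 and Amacr were among the 10 genes by which cluster 2 stood out most. Comparing within clusters can therefore shrink such differences by itself, and its part was not tested.

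**Figure D2:**
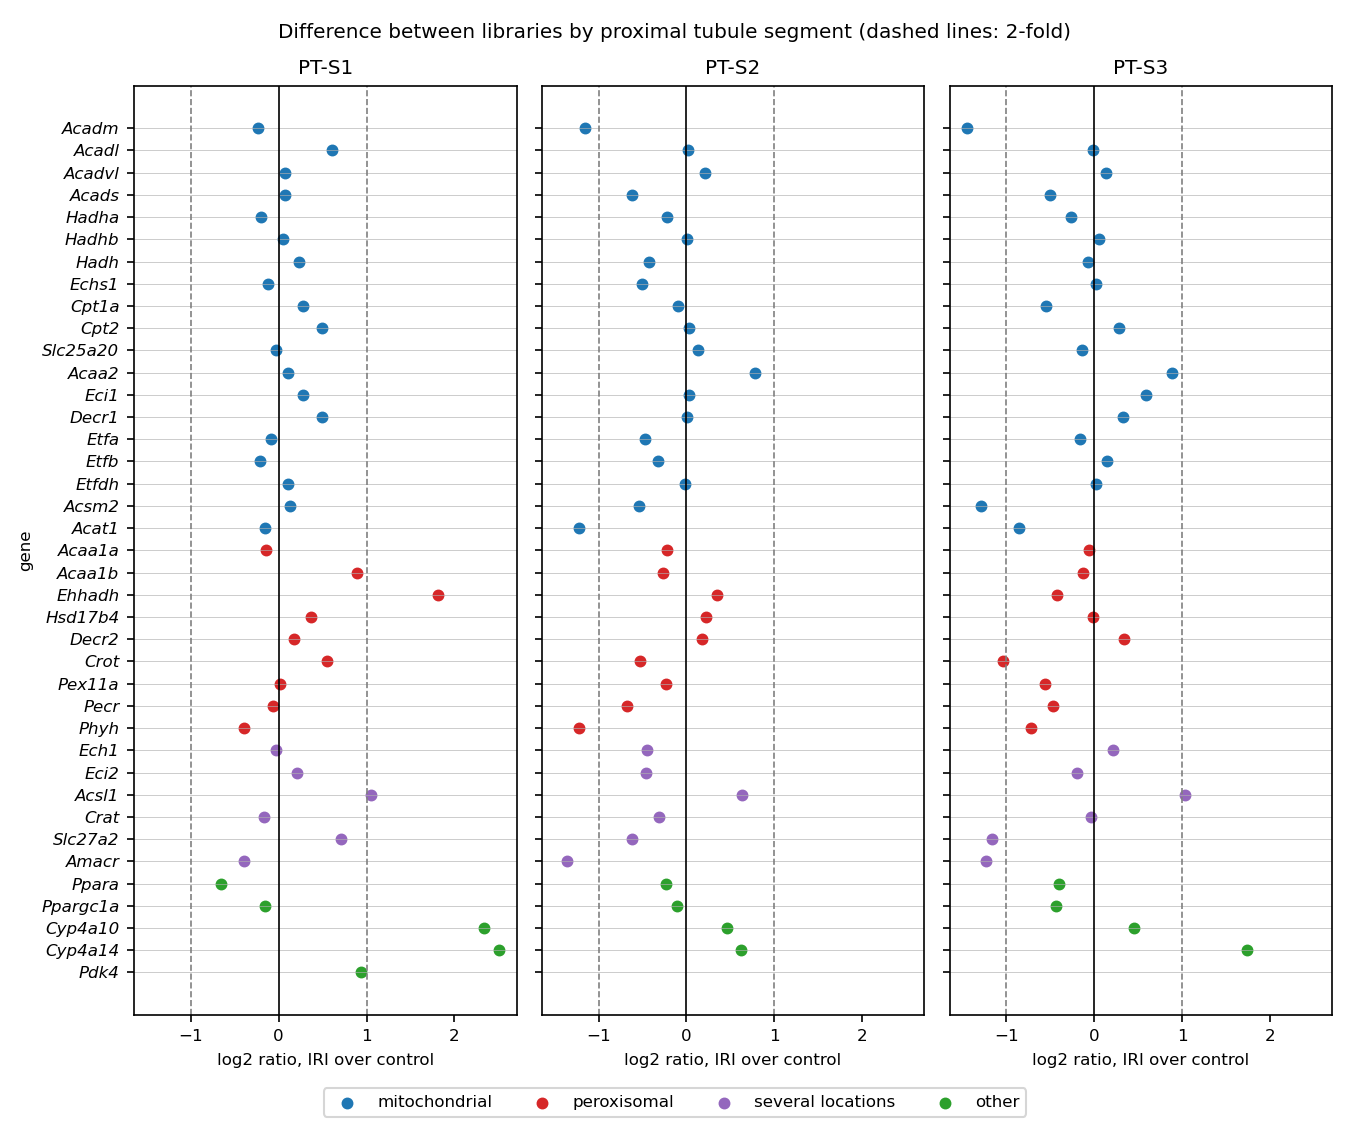
Log2 ratio of the IRI over the control mean for each gene (rows, coloured by location) in S1, S2 and S3. In S1 Cyp4a14, Cyp4a10, Ehhadh and Acsl1 lie past the 2-fold line on the right and no gene past the one on the left, while in S2 and S3 Acadm and Amacr lie past the left line. Pdk4 was measured in S1 only.

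In S1 4 of 39 genes were at least 2-fold higher in the IRI library (0.922% of 7595 genes) and 0 at least 2-fold lower (0.579%). The lower S1 marker levels and the higher Slc22a6 level of IRI S1 cells given above moved with these differences, and their part in them was not tested. Ehhadh, the bifunctional enzyme of peroxisomal beta-oxidation, averaged 0.0533 in control S1 and 0.313 in IRI S1 (log2 ratio 1.81). It was detected in 31 of 600 control cells (5.17%, exact 95% interval 3.54 to 7.25) and in 232 of 989 IRI cells (23.5%, 20.8 to 26.2). In T cells, which serve as the measure of free RNA, the shares were 5.08% of 59 control cells (1.06 to 14.1) and 1.03% of 97 IRI cells (0.0261 to 5.61). Their median depths were 2606 and 3345 UMIs, below the 4953.5 and 4716 of S1. The control share in S1 lay within the T cell interval and the IRI share above it, at unequal depth.

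Cyp4a10 averaged 0.0167 in control and 0.288 in IRI S1 (log2 ratio 2.34), and was detected in 9 of 600 control and 201 of 989 IRI cells, the latter 20.3%, against 5.08% and 5.15% of T cells. Cyp4a14 averaged 0.00333 and 0.254, with 2 of 600 control cells (0.333%, 0.0404 to 1.2) and 149 of 989 IRI cells (15.1%, 12.9 to 17.4) positive. Its log2 ratio of 2.51 depends on the 0.05 added, because so few control counts stand behind it. Among T cells Cyp4a14 was found in 3.09% of the IRI library and in 0 of 59 of the control library, where the limit that 3 counts set is 5.08% and the exact 95% upper bound 6.06%. These intervals cover counting error only. Both omega-hydroxylases were thus near absent from control S1 and detected in 15.1% and 20.3% of IRI S1 cells. Reads of Cyp4a10 may not be fully told apart from those of its near-identical relatives Cyp4a31 and Cyp4a32. Cyp4a31 averaged 0.0583 in control and 0.324 in IRI S1, and Cyp4a32 was not among the genes present.

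Acsl1 averaged 0.0983 in control and 0.258 in IRI S1 (log2 ratio 1.05). Just under the 2-fold limit were Pdk4, the kinase that turns pyruvate away from oxidation, at 0.00667 and 0.0587 (0.94), and Acaa1b, a peroxisomal thiolase, at 0.258 and 0.523 (0.89). Acaa1b shares most of its sequence with Acaa1a, which averaged 0.255 and 0.226. Slc27a2 averaged 0.725 and 1.22 (0.71), Acadl, the long-chain dehydrogenase, 0.0950 and 0.171 (0.61), and Crot 0.117 and 0.193 (0.54). No gene of the mitochondrial list reached 2-fold in S1 in either direction.

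The carnitine shuttle had 3 members among the genes. Cpt1a, its gatekeeper on the outer mitochondrial membrane, averaged 0.137 and 0.177 in control and IRI S1 and 0.302 and 0.190 in S3. Cpt2, its inner-membrane partner, averaged 0.0683 and 0.116 in S1 and 0.112 and 0.147 in S3. Slc25a20, the carnitine-acylcarnitine translocase, averaged 0.118 and 0.115 in S1 and 0.0749 and 0.0633 in S3. None of the 3 reached 2-fold in any segment.

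The regulators had low means throughout. Ppara averaged 0.102 in control and 0.0465 in IRI S1 (log2 ratio -0.65), 0.0169 and 0.00675 in S2, and 0.0312 and 0.0114 in S3. Ppargc1a averaged 0.152 and 0.130 in S1, 0.0212 and 0.0162 in S2, and 0.0707 and 0.0392 in S3. Both regulators were thus highest in S1 among the segments and had no higher mean in the IRI library in any of them, although with free RNA subtracted Ppara had a log2 ratio of 0.18 in S2 and 0.30 in S3 and Ppargc1a 0.042 in S2, and Ppargc1a 0.10 in S2 in cells of at least 2000 UMIs.

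S2 showed the lower genes of the pooled tubule and no higher ones: 4 of 38 measured genes were at least 2-fold lower (1.32% of 7720 genes) and 0 at least 2-fold higher (0.311%). Amacr averaged 0.642 in control and 0.219 in IRI S2 (log2 ratio -1.36). Acat1 averaged 0.755 and 0.293 (-1.23), and Phyh 0.901 and 0.356 (-1.23). Acadm averaged 0.973 and 0.410 (-1.16), and -0.55 was its ratio among cells of at least 2000 raw UMIs, a limit that also removes most cells of the shallow clusters 0 and 2. Equal weighting of the shared clusters gave -0.31 for Acadm, -0.14 for Amacr, -0.23 for Acat1 and -0.36 for Phyh.

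In S3 5 of 38 genes were at least 2-fold lower (3.10% of 7720 genes) and 2 at least 2-fold higher (1.44%). Acadm averaged 1.46 in control and 0.503 in IRI S3 (log2 ratio -1.45). Acsm2 averaged 3.43 and 1.38 (-1.29). Slc27a2 averaged 3.85 and 1.70 (-1.16). These 3 genes had the largest differences of the list in corrected counts per cell.

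Amacr averaged 0.587 in control and 0.222 in IRI S3 (log2 ratio -1.23), and Crot 0.605 and 0.270 (-1.04). Acsl1 averaged 0.0617 and 0.178 (1.03), and Cyp4a14 0.0465 and 0.273 (1.74). With the shared clusters 3 and 4 weighted equally the lower values shrank to -0.43 for Acadm, -0.70 for Acsm2, -0.36 for Slc27a2 and -0.31 for Amacr, and Crot turned to 0.083, while Cyp4a14 kept 1.94 and Acsl1 had 0.72. Cells labelled S3 in the IRI library also had more of the S1 markers, 0.322 against 0.0915 summed, and of the injury marker Havcr1, 0.199 against 0. The part of these markers in the S3 differences was not tested.

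**Figure D3:**
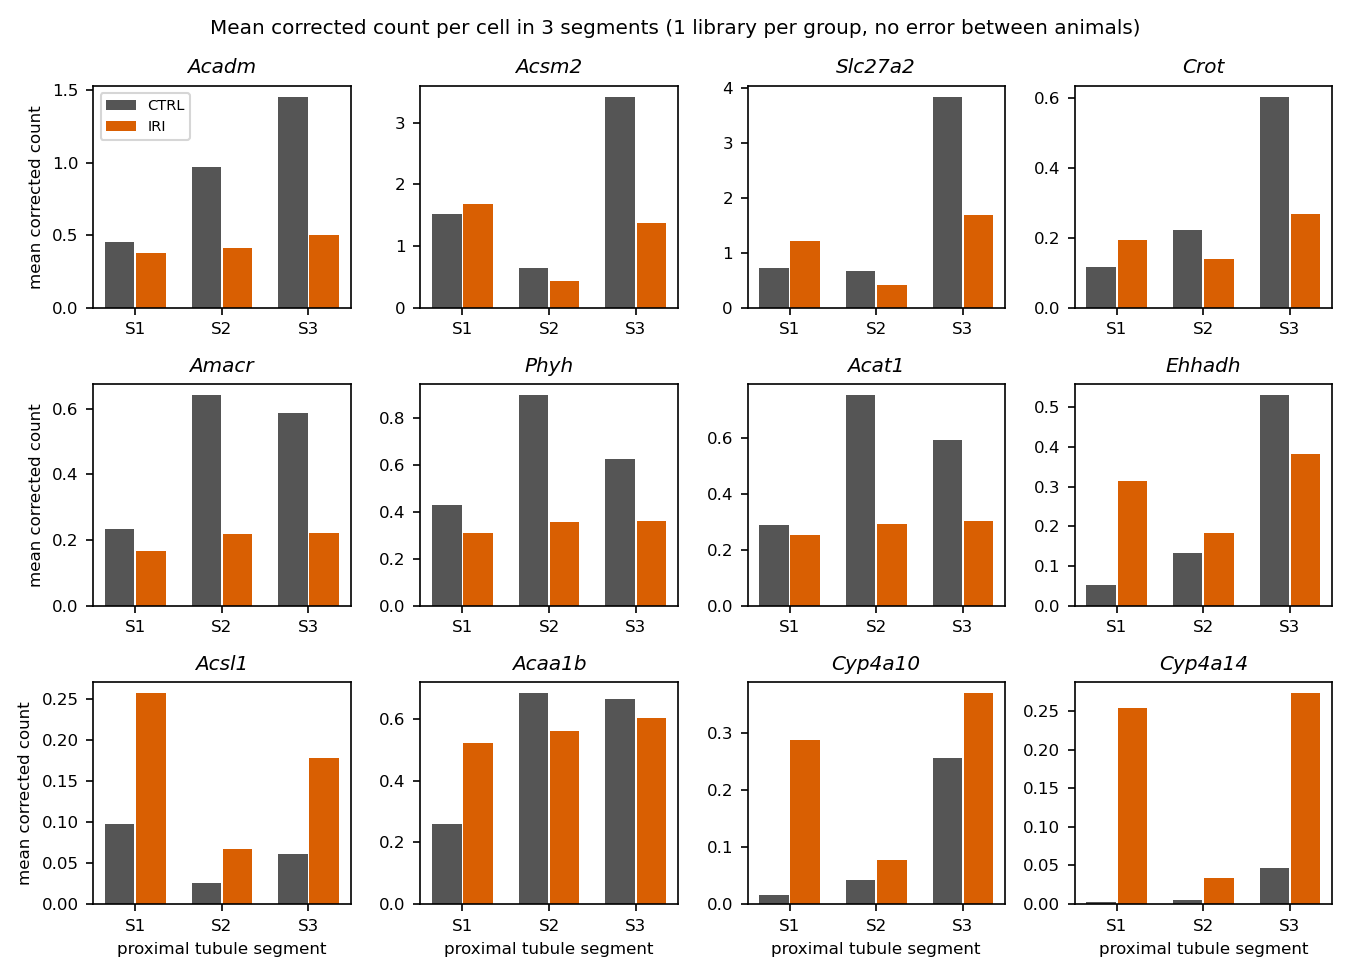
Mean corrected count per cell of 12 of the genes in S1, S2 and S3, control in grey and IRI in orange, 1 library each. The control bars of Slc27a2, Acadm, Crot, Ehhadh and Cyp4a10 increase steeply towards S3, whereas the IRI bars differ less between S1 and S3.

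The medians of both compartments were compared in each segment. In S1 the median log2 ratio was 0.08 over the mitochondrial and 0.18 over the peroxisomal genes, beside -0.10 over all genes, and 3 other scalings of the libraries, which moved the median of all genes in S1 from -0.10 to as much as 0.02, left both above 0 (0.20 to 0.24 and 0.28 to 0.33). Both were below 0 (-0.083 and -0.066) when only genes with at least 300 summed counts were kept, beside -0.16 over all genes so kept. In S3 the peroxisomal median was -0.43, with 8 of 9 genes below 0, and the mitochondrial median -0.01, with 10 of 19 below 0, beside -0.08 over all genes, of which 4754 of 7720 were below 0. The peroxisomal median in S3 stayed below 0 under the other scalings (-0.30 to -0.27) but was 0.069 with shared clusters weighted equally, and the mitochondrial one was 0.10 to 0.13 under the scalings. In S2 the peroxisomal median was -0.23 and the mitochondrial one -0.09, beside -0.08 over all genes, of which 5116 of 7720 were below 0, and the other scalings turned the mitochondrial one to between 0.019 and 0.067 and the peroxisomal one to between -0.070 and 0.0091. Only 9 peroxisomal genes stand behind each of these medians.

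Some of the genes differed between S1 and S3 in the control library and less so in the IRI library. In the control library 8 of the 39 genes were at least 2-fold higher in S3 than in S1 (2.84% of 7963 genes), and in the IRI library 0 were (0.339% of 7377). The share of all genes also differed by library. Ehhadh had the steepest gradient, a log2 ratio of S3 over S1 of 2.49 in control and 0.25 in IRI cells. For Slc27a2 the values were 2.33 and 0.46, for Cyp4a10 2.21 and 0.32, and for Crot 1.98 and 0.39. For Cyp4a10 both segments had higher means in the IRI library, S1 more so, whereas for Ehhadh, Crot and Slc27a2 the mean was higher in S1 and lower in S3. With shared clusters weighted equally Ehhadh (0.51) and Crot (0.083) were above 0 in S3.

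Acadm went from 1.58 in control to 0.37 in IRI cells on the same S3 over S1 scale, Acaa1b from 1.21 to 0.19, Amacr from 1.16 to 0.32 and Acsm2 from 1.14 to -0.28. For Acadm, Amacr and Acsm2 it was mainly the level in S3 that differed, as the segment values above show. In the reverse direction 1 gene was at least 2-fold higher in S1 in each library (2.11% and 1.69% of all genes). This was Acaa2, the last enzyme of the mitochondrial spiral, in control cells (-1.31, with 0.307 in S1 and 0.0943 in S3) and Ppargc1a in IRI cells (-1.02). Over the 9 peroxisomal genes the median gradient was 0.35 in control and -0.06 in IRI cells, and over the 19 mitochondrial genes 0.27 and 0.23.

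The same cells taken by cluster had higher genes in S1 and in S3. These values are not independent of the segment values above. In cluster 5 (S1) 6 of 39 genes were at least 2-fold higher (1.37% of all genes) and 0 lower (2.19%): Ehhadh (0.0742 in control, 0.475 in IRI), Cyp4a10 (0.0177, 0.479), Acaa1b (0.286, 0.659), Acsl1 (0.124, 0.311), Pdk4 (0.0141, 0.110) and Cyp4a14, which was at 0 in 283 control cells and averaged 0.455 in IRI cells. In cluster 6 (S1) 2 of 36 were higher (1.27%) and 0 lower (0.637%): Ehhadh (0.0362, 0.146) and Cyp4a10 (0.0109, 0.0919). In cluster 3 (S3) 4 of 37 were higher (2.27%) and 0 lower (1.36%): Ehhadh (0.157, 0.366), Acsl1 (0.0630, 0.186), Cyp4a10 (0.0551, 0.348) and Cyp4a14 (0.0157, 0.274). Ehhadh was thus lower in IRI S3 as a whole but higher in cluster 3, the cluster that makes up most of it.

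Other shared clusters were mixed. In cluster 12 (S2) 3 of 30 genes were at least 2-fold higher (3.53%) and 0 lower (1.72%): Ehhadh, Decr1, which reduces dienoyl-CoAs of unsaturated fatty acids, and Crot. In cluster 4 (S3, 742 control and 58 IRI cells) 4 of 37 were lower (12.9%), Acads, Acaa1a, Acsm2 and Phyh, and 2 higher (0.701%), Cyp4a10 and Cyp4a14, so the lower ones were near the share of all genes there. In cluster 0 (S2, median 854 and 745 UMIs) none of 37 passed 2-fold either way (0.608% lower, 0.515% higher). In cluster 1 (S2, 25 IRI cells) 10 of 37 were higher (4.18%), Acadvl, Cpt2, Acaa2, Acaa1b, Ehhadh, Hsd17b4, Eci1, Etfb, Etfdh and Crat, and 2 lower (8.62%), Cpt1a and Slc27a2. In cluster 2 (S2, 72 IRI cells) 2 of 33 were higher (2.29%), Ehhadh and Hsd17b4, and 2 lower (5.66%), Acadvl and Echs1.

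**Figure D4:**
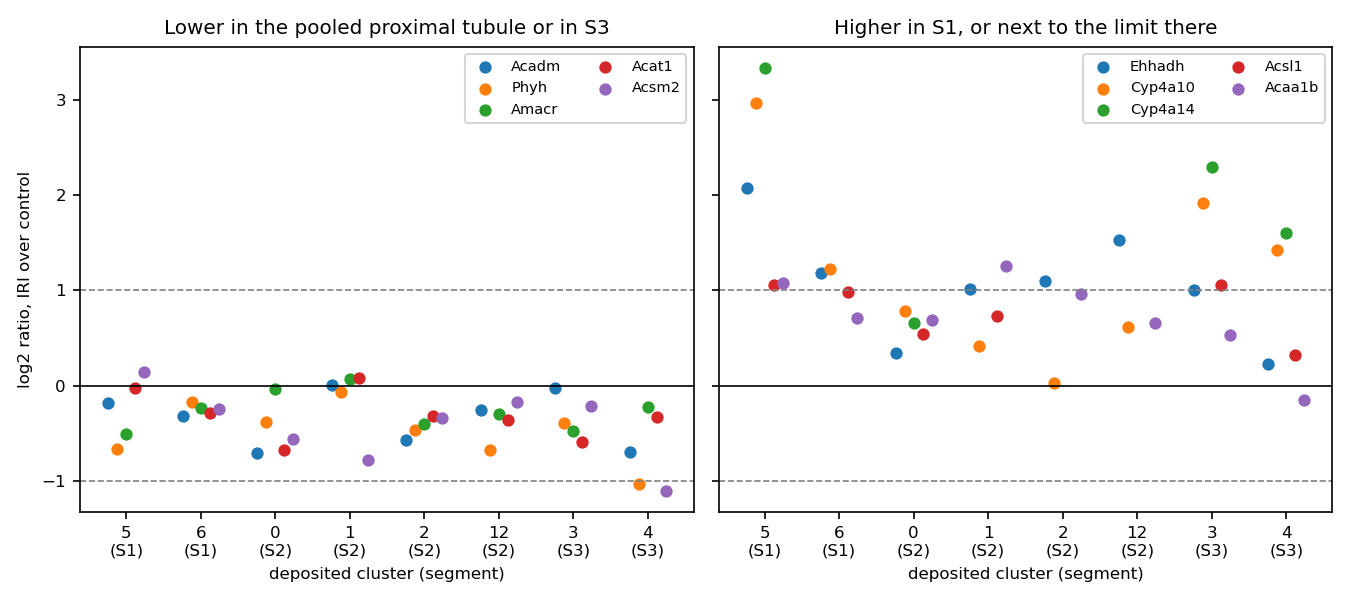
Log2 ratio of the IRI over the control mean in the 8 proximal clusters shared by the libraries. Shown are 5 of the genes lower in the whole proximal tubule or in S3 (left) and 5 of those higher in S1 or next to the limit there (right). Dashed lines mark 2-fold. Crot and Slc27a2, also lower in S3, are not shown and lay on both sides of 0. Their ratios were 0.75 and 0.39 in cluster 3 and -0.35 and -0.92 in cluster 4. Left-hand values lie mostly between 0 and the lower line, right-hand ones mostly above 0. The Cyp4a14 control mean in cluster 5 was 0, so the height of that point depends on the 0.05 added, and clusters 1 and 4 have 25 and 58 IRI cells.

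The IRI library has 135 cells annotated as injured proximal tubule, which expressed Havcr1 (1.33 per cell) and were deeply read (median 8267 UMIs). Their members summed to 9.47 per cell. Against the other proximal cells of the IRI library 3 of 39 genes were at least 2-fold lower (1.88% of 8557 genes) and 1 higher (2.98%). Echs1, the mitochondrial enoyl-CoA hydratase, averaged 0.0889 against 0.292, Pecr 0.237 against 0.639 and Amacr 0.0593 against 0.204. Slc27a2 averaged 2.22 against 0.971 (log2 ratio 1.15). These cells also carried S1 markers (0.963 summed), and against IRI S1 the ratio of Slc27a2 was 0.84.

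Other members lay on both sides within the 2-fold limit. Acadm averaged 0.20, against 0.422 in the other proximal cells (log2 ratio -0.92), and Acat1 0.119 against 0.284 (-0.99). Acadvl, the very-long-chain dehydrogenase, averaged 0.230 against 0.135 (0.59), Hadha 0.170 against 0.0871 (0.68) and Cpt1a 0.222 against 0.124 (0.65), while Hadhb, the partner of Hadha, averaged 0.0741 against 0.103 (-0.31). Acsm2 averaged 1.53 against 1.04 (0.55). The median over the 39 genes was -0.36, beside 0.03 over all genes.

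Proliferating proximal tubule (155 IRI cells, median 1544 UMIs) summed to 7.07 per cell. Here 4 of 39 genes were at least 2-fold lower than in the other IRI proximal cells (1.12% of 8561 genes). Ehhadh averaged 0.0710 against 0.271, Cyp4a14 0.00645 against 0.159, Acsl1 0.0323 against 0.152, and Eci1, a mitochondrial enoyl-CoA isomerase, 0.0516 against 0.171. Against IRI S2 alone Ehhadh (-0.95), Cyp4a14 (-0.58) and Acsl1 (-0.51) were within 2-fold. The median over the 39 genes was -0.45, beside -0.05 over all genes.

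Lower values of proximal genes were also seen in cells that are not proximal. In resident macrophages 7 of 18 measured genes were at least 2-fold lower in the IRI library (5.13% of 1814 genes) and 1 higher (10.5%). Acadm averaged 0.511 and 0.0817 there, and Slc27a2 0.436 and 0.141. In T cells Acadm averaged 0.220 and 0.0516, and Slc27a2 0.203 and 0.0516. Immune cells may express Acadm themselves, so their level is an upper limit on free RNA for such genes.

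When free RNA, estimated for each gene and library from the immune cells, was subtracted, the 4 genes lower in the pooled proximal tubule remained 2-fold lower (Acadm -1.11, Phyh -1.13, Amacr -1.14 and Acat1 -1.11), and in S1 Cyp4a10 had a log2 ratio of 2.59, Ehhadh 2.61 and Cyp4a14 2.34. Acsl1 in S1 came to 0.95, under the limit, and Slc27a2 and Crot in S1 came to 1.08 and 1.88, above it. In the thick ascending limb 3 of 30 genes were at least 2-fold lower (4.13% of 2807 genes), Acsm2, Slc27a2 and Amacr, all genes with their highest means in proximal segments. In distal convoluted and connecting tubule 5 of 25 were lower (4.29% of 2448 genes), Acadm, Acsm2, Crot, Slc27a2 and Pecr, and in vasculature 5 of 20 (5.03% of 2644 genes). The part of free RNA in these distal and vascular differences was not tested. Intercalated cells went the other way, with 2 of 10 genes at least 2-fold higher (2.84% of 846 genes) and 0 lower (4.85%): Echs1 averaged 0.333 and 0.745, and Phyh 0.316 and 0.691, in 57 and 55 cells.

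Further genes of the pathway were taken from 7 lists of 105 genes, of which 93 were measured in the proximal tubule. At least 2-fold lower were 6 of them, and 1 was higher. The shares lower given above were 0.880% of all genes and 2.17% of those with at least 300 summed counts. The shares higher were 0.474% and 1.07%, and 1 of 93 lies near the latter. Acsm3, a medium-chain synthetase of the same family as Acsm2, averaged 0.504 and 0.133 (log2 ratio -1.60). Nudt19, a peroxisomal coenzyme A hydrolase, averaged 1.88 and 0.593 (-1.59), and Eci3, a peroxisomal isomerase, 0.437 and 0.153 (-1.26). Bdh1, which interconverts ketone bodies, averaged 0.124 and 0.0264 (-1.19). The other two were Hibadh of valine breakdown (-1.04) and the cytochrome Cyp4b1 (-1.01). Ucp2, an uncoupling protein and PPAR target, averaged 0.0410 and 0.259 (1.76).

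Segment values of some genes of that wider set, picked after their values were seen, are given beside those of the 39. Abcd3, a peroxisomal membrane transporter, averaged 0.148 in control and 0.402 in IRI S1, and 0.400 and 0.332 in S3. Cd36, a fatty acid translocase, averaged 0.0300 and 0.135 in S1, and 0.800 and 0.329 in S3. Scp2, from the peroxisomal list, had lower IRI means in both, 2.945 and 2.018 in S1 and 2.862 and 1.941 in S3. In the pooled proximal tubule the median was -0.35 over the 28 measured further mitochondrial genes, with 21 below 0. Over the 19 peroxisomal ones it was -0.19 with 13 below 0, and over the 8 genes of fatty acid synthesis 0.17 with 7 above 0. Of all 10342 genes measured 5734 were below 0 and 4608 above, with a median of -0.02. The synthesis genes had low means, at most 0.0938 (Acly in IRI cells), so their ratios depend on the 0.05 added.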

How the data were processed

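Whole kidneys, 1 control and 1 IRI library, were digested and sequenced as single cells. Per the submitters' processing notes Cell Ranger 3.0.0, build mm9 and Seurat 3.2 were used. The deposited values are whole numbers per gene and cell, depth-corrected by the authors and therefore a score, not raw counts: their totals per cell were 1468 to 3212, while the raw UMIs in the annotation ran from 271 to 24680. The libraries held 24169073 and 16816996 UMIs (median 2344 and 1888.5 per cell). Cell types and the 29 clusters are the authors' deposited annotation, whose fields had no separators. They were split for all 11759 cells, and in 3615 cells with several possible splits the one nearest the trend of genes on UMIs was taken. No doublet step is given in the sources used here and none was run, and 55 cell barcodes occurred in both libraries.

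Means per cell, log2 ratios (0.05 added), 2-fold counts and exact Clopper-Pearson intervals were computed with Python 3.11.15, numpy 2.4.6, pandas 2.3.3 and scipy 1.17.1, and checked on simulated data. Types needed 20 cells per library. The members and gene lists were chosen with earlier results of these data known. Named are members past 2-fold in the proximal tubule or a segment, those with the highest mean in each location, and Ppara and Ppargc1a. Other named genes were chosen after their values were seen, as were the clusters weighted equally. Free RNA was taken as the mean of a gene in T cells, B cells and neutrophils of its library, which counts their own expression of a gene as background. Protein sequences were not used here.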

Additional observations from a re-analysis of the deposited data

Results flagged for a closer look

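Crot and Slc27a2 differed in direction between segments, with the IRI mean higher than the control mean in S1 and lower in S3. The log2 ratio of IRI over control in S3 minus that in S1 was -1.58 for Crot and -1.87 for Slc27a2. With 1 library per group the difference was not tested, and it rests on segments that were filled by different clusters in the 2 libraries. Within cluster 3, the main S3 cluster of the IRI library, Crot averaged 0.134 in control and 0.260 in IRI cells, and Slc27a2 1.28 and 1.69.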

How the results depend on the processing

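Each group is 1 library, so no value here has an error between animals, and shallow cells (a median of 912 UMIs in IRI S2) limit what low genes such as Ppara can show. No paired analysis was possible because each group has 1 sample and no test was made. Of 672 alternative values of single genes 598 stayed on the same side of the 2-fold limit. The sign changed in 20, and among genes past 2-fold as reported in 1, Crot in S3, which was 0.083 with shared clusters weighted equally. That weighting, and leaving out barcodes found in both libraries, were chosen after seeing the data. For changed values the cause was not tested.

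The count of genes at least 2-fold lower in the whole proximal tubule, 4 as reported, was 2 (0.609% of all genes) with totals that left out mitochondrially encoded, ribosomal protein and haemoglobin genes, 1 (0.242%) with 0.2 added, 2 (0.643%) in clusters with at least 20 cells of each library, 2 (0.832%) for the unweighted mean of the 3 segments, 7 (3.76%) at a 1.5-fold limit and 0 (0.319%) with shared clusters weighted equally. The count higher, 2 as reported, was 0 (0.116%) with 0.2 added, 4 (0.880%) with free RNA subtracted, 1 (0.406%) for the unweighted mean and 4 (1.64%) at 1.5-fold.

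The scalings by trimmed mean, by median ratio and by the reduced totals gave, in that order, mitochondrial medians of 0.24, 0.22 and 0.20 in S1, of 0.019, 0.047 and 0.067 in S2 and of 0.10, 0.13 and 0.11 in S3. The peroxisomal medians were 0.33, 0.31 and 0.28 in S1, -0.070, -0.024 and 0.0091 in S2 and -0.30, -0.27 and -0.29 in S3. With at least 300 summed counts the mitochondrial medians were -0.083 in S1 and -0.32 in S2, and the peroxisomal median was -0.066 in S1. The medians over all genes so kept were -0.16 in S1 and -0.35 in S2. In cells of at least 2000 UMIs the peroxisomal medians were 0.39, 0.18 and -0.13 in S1, S2 and S3, and the mitochondrial ones 0.083 in S2 and 0.10 in S3. With free RNA subtracted the mitochondrial medians were 0.29 in S1 and -0.22 in S2, and the peroxisomal one 0.34 in S1. With shared clusters weighted equally the S2 medians were 0.20 (mitochondrial) and 0.32 (peroxisomal), and the peroxisomal S3 median 0.069. That S3 median was -0.25 with 0.2 added and also in clusters with at least 20 cells of each library, and -0.19 with genes of several locations included.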
